A study of Mus musculus with 5 samples.

Results

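Suprabasal squamous cells were the 383 squamous epithelial cells with the highest keratin score in 4 libraries of chemotherapy-treated mouse colon tumors, out of 1150 squamous cells and 8491 cells kept in the series. They were chosen by measured values. A squamous cell had at least 10 UMIs (unique molecular identifiers, each counting 1 captured RNA) of Krt5 and Krt14 together and more of these than of the columnar genes Krt8, Krt18 and Lgals4. Squamous cells were then ordered within each library by a score R, the log2 of the summed UMIs of Krt13, Krt4, Krt6b, Spink5 and Psca plus 1 over those of Krt15, Krt17, Col17a1 and Trp63 plus 1, and 1 in 3 cells, those with the highest R, were taken as members. The 383 cells with the lowest R are called the lowest-R cells, and the 384 between are called the middle cells.

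The study asked, among other questions, what chemotherapy does to the cells of inflammation-driven colon tumors. Tumors had been raised in WT mice, of C57BL/6J or mixed C57BL/6J and 129 background, with azoxymethane and dextran sodium sulfate (AOM/DSS), and all treated mice had received 5-fluorouracil (5FU) and Irinotecan. The study did not see squamous parts in every AOM/DSS tumor, and names those of pure C57BL/6J background in particular. It does not give the background of each library. Single cells were profiled by inDrop, a droplet method, in 2 libraries of day 1 (called early), and in 1 library each of day 3 and day 6 (together late), where the day counts time on or after treatment. The fifth library, of untreated WT normal colon digested to release fibroblasts, held 0 squamous cells among 1095 cells, which allows a share of up to 0.274%. No untreated tumor was analysed here, so every comparison is within treated tumors. The tumor protocol kept epithelial crypts on a filter and discarded what passed through it, so stromal and immune cells are under-represented. Day 1 replicate 1 and day 3 had the single index library structure, and day 1 replicate 2 and day 6 the dual index structure. Values for the 4 treated libraries are given below in the order day 1 replicate 1, day 1 replicate 2, day 3 and day 6.

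Members numbered 17 of 51, 63 of 190, 72 of 216 and 231 of 693 squamous cells. Their median depth was 7279, 2427, 3116 and 6928 UMIs per cell, and that of the lowest-R cells 8940, 3809, 3287 and 5774 UMIs. Library totals ran from 5132360 to 16904947 UMIs. Of the members, 2, 2, 2 and 8 carried a barcode that also occurred in another library. With 1 or 2 libraries per time point, and 17 members in the smallest, the precision of a comparison over time is set by the number of libraries and not by the number of cells.

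Stratified squamous epithelium renews from a basal layer that sits on the basement membrane. Cells that leave this layer stop dividing, exchange integrins for desmosomes, and switch on new keratins and the proteins of the cornified envelope, a cross-linked shell under the membrane. KRT13 and KRT4 form the suprabasal keratin pair of wet mucosae such as esophagus and oral lining, KRT6B belongs to the keratins of injured and fast-renewing epithelium, SPINK5 inhibits the kallikrein proteases of shedding cells, and PSCA is a small membrane-anchored surface protein. The basal side of the score holds KRT15 and KRT17, the hemidesmosome collagen COL17A1, and p63 (Trp63), the transcription factor that maintains basal cells. Normal colon has a single columnar layer and no such stratification.

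**Figure D1:**
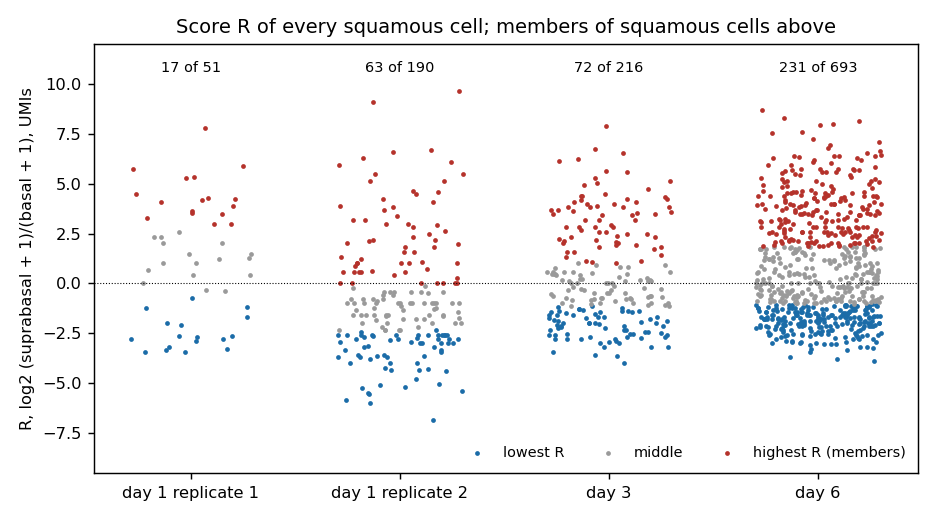
Score R (vertical axis, log2) of each of the 1150 squamous cells by library (horizontal axis); red points are the members, grey the middle and blue the lowest-R cells, and the horizontal spread of points has no meaning. The lowest member of day 1 replicate 2 sits at 0.00, below the limit of 3.00 in day 1 replicate 1.

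The rule took the same share of cells from each library, so the limit on R differed between them. The last member inside and the next cell outside had R of 3.00 and 2.58, of 0.00 and −0.11, of 1.04 and 1.00, and of 1.85 and 1.84. In the plot of R by library, day 1 replicate 2 therefore reaches lowest, and 14 of its 63 members had at most 2 UMIs of the 5 suprabasal genes, 1 of them none. Above 0, where suprabasal UMIs outnumber basal ones, lay 60.8%, 29.5%, 46.8% and 50.4% of squamous cells.

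A pair of genes is shown by the sequence that precedes them, because Krt13 is the leading gene of the score and Sprr1a is among the genes that rose most in the members without being part of it. Each run is 250 bases before to 50 after the start of the gene, 5′ to 3′ on the minus strand, from RefSeq (GRCm38.p6). Krt13 lies on chromosome 11 (100121517 to 100121816) and Sprr1a on chromosome 3 (92485832 to 92486131). Capitals mark TGANTCA, with any base as N, searched on both strands. It is a loose form of the site of AP-1 (FOS and JUN) proteins, which usually has C or G in the middle. The TGAATCA marked in Krt13 is thus a looser match, and all shares below count the loose form.

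Krt13: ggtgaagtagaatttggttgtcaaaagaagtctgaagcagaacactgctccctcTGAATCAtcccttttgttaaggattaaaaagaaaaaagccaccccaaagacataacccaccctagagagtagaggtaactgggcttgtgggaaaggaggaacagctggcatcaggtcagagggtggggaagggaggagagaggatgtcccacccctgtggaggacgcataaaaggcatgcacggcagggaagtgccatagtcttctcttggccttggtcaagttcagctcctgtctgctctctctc
Sprr1a: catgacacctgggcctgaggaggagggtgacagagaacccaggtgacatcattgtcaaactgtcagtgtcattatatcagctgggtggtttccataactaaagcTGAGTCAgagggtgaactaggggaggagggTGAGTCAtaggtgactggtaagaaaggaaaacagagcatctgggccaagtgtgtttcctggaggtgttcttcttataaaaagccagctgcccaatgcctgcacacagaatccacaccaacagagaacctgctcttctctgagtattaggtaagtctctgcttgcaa

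Krt13 held 1 such match and Sprr1a 2. A second listed start of Krt13, on the same chromosome (100120528 to 100120827), held 2, and Csta1 and Tnc, also among the genes with the largest changes, held 0. Of gene symbols with a promoter in the table, 8.97% of 27025 held the match, and 6.52% of the 4556 that were also tested between layers. Among genes called higher in the members (defined below) 14.4% of 362 symbols held it, and among those called lower 5.96% of 235. AACCGGTT, the letters bound by grainyhead-like (GRHL) factors, stood in 1.38% of the former, 0.426% of the latter and 0.439% of those tested. These shares rested on 5, 1 and 20 symbols. TATAAA stood in 11.6%, 11.9% and 9.33%. These are counts of letters, not of bound sites, and no test was made.

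**Figure D2:**
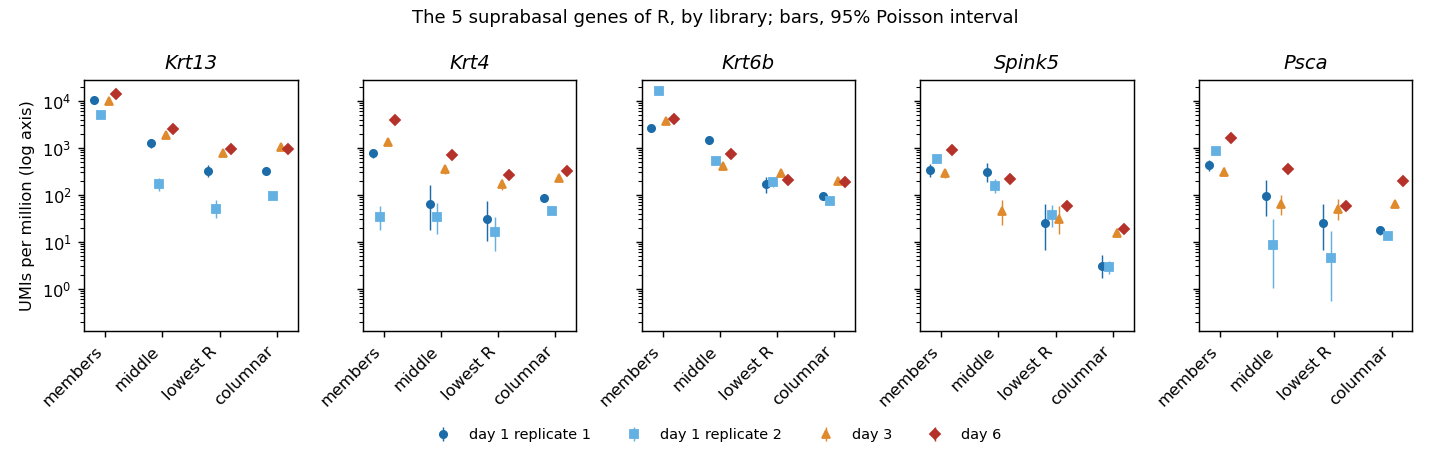
CPM, the UMIs of a gene in 1000000 UMIs (vertical log axis), of the 5 suprabasal genes of R in members, middle, lowest-R and columnar cells of each library; bars are exact 95% Poisson intervals and cover counting error only. Krt13 of the lowest-R cells lies near the columnar level in each library, and Krt4 of day 1 replicate 2 lies near it in the members too.

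The genes of the score chose the members, so their levels are a description. Krt13 stood at 10324, 5024, 9820 and 14137 UMIs in 1000000 UMIs (CPM) in the members and at 325, 50.7, 768 and 954 CPM in the lowest-R cells. Columnar cells held 314, 96.6, 1056 and 954 CPM of it, a level near that of the lowest-R cells, and whether this came from RNA set free in the suspension was not tested. Krt13 of the members was above the columnar level in all 4 libraries.

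Krt4, the partner of Krt13, had 762, 33.1, 1344 and 3987 CPM in the members against 84.5, 45.5, 229 and 323 CPM in columnar cells. In day 1 replicate 2 the members did not exceed the columnar level. Spink5 (334, 571, 290 and 906 CPM) and Psca (428, 861, 311 and 1610 CPM) were above it in all 4, with columnar levels of 3.11, 2.83, 15.5 and 18.6 CPM for Spink5 and 17.5, 13.2, 62.9 and 196 CPM for Psca. Psca rested on few cells: the 5 highest members of each library held 100%, 94.1%, 75.3% and 49.4% of its UMIs. Over all squamous cells, Psca was found in 27.45%, 10%, 24.07% and 33.04%. In columnar cells this share was 15.19%, 5.155%, 21.43% and 32.08%, so the 2 were close in day 3 and day 6. Spink5 was found in 47.1%, 42.9%, 44.4% and 67.1% of members and in 2.72%, 2.32%, 7.45% and 8.61% of columnar cells.

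Krt6b had 2713, 16146, 3726 and 4093 CPM in the members and 95.2, 75.4, 197 and 192 CPM in columnar cells. Day 1 replicate 2 stood apart with the highest value, and there 5 of 63 members held 62.2% of the Krt6b UMIs. KRT6A and KRT6B are near-identical in sequence, so some reads of one can have been given to the other. Krt6a had 16244, 25065, 9401 and 10651 CPM in the members.

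Of the genes on the other side of the score, Col17a1 had 725, 998, 490 and 288 CPM in the lowest-R cells and 79.8, 30.6, 41.9 and 39.8 CPM in the members. Trp63 was still present in the members, at 268, 91.7, 105 and 235 CPM against 756, 389, 194 and 692 CPM. The gate genes did not separate the layers in this way: Krt14 was at 10665, 27007, 5828 and 9649 CPM in the members and at 5474, 13427, 4997 and 8583 CPM in the lowest-R cells. UMIs of this protocol come from transcript ends and were not scaled by transcript length.

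**Figure D3:**
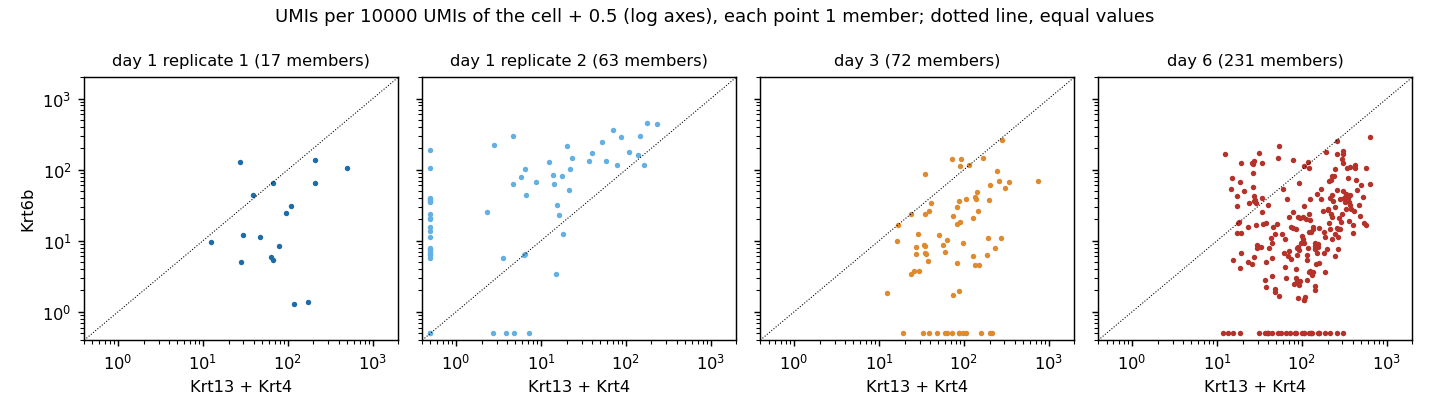
Krt6b (vertical) against Krt13 plus Krt4 (horizontal) in each member, in UMIs in 10000 UMIs of the cell plus 0.5 on log axes, with 1 panel per library and a dotted line of equal values. Points of day 1 replicate 2 lie mostly above the line (Krt6b led in 50 of 63 members), and those of the other 3 libraries mostly below it.

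The members were not uniform in the gene that carried their score. Krt13 had the most UMIs of the 5 genes in 259 of the 383 members, Krt6b in 88, Krt4 in 17, Spink5 in 2 and Psca in 2, and 15 were tied. Krt13 led in 13 of 17, 5 of 63, 58 of 72 and 183 of 231 members. Krt6b led in 3 of 17 (17.6%, exact 95% binomial interval 3.8 to 43.4), 50 of 63 (79.4%, 67.3 to 88.5), 8 of 72 (11.1%, 4.92 to 20.7) and 27 of 231 (11.7%, 7.85 to 16.6). Day 1 replicate 2 was thus made mainly of Krt6b-led cells and the other day 1 library of Krt13-led cells. Among members with at least 5 UMIs of these keratins, the median share of Krt13 plus Krt4 in the sum with Krt6b was 80%, 16.1%, 85% and 90.4%. Cells with nearly pure Krt6b (a share under 10%) occurred 17 times in day 1 replicate 2, 1 time in day 6 and 0 times in the other 2 libraries. A Krt13 UMI was also found in 82.99%, 38.6%, 92.65% and 94.13% of columnar cells, fewest in day 1 replicate 2. Free Krt13 RNA can raise the share of a member, and its part was not tested.

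Krt6b-led members were set beside the members led by Krt13 or Krt4, as a description. The former numbered 3, 50, 8 and 27 cells and the latter 14, 6, 61 and 195. Krt16, another keratin of injured epithelium, stood at 1364, 4834, 1269 and 861 CPM on the Krt6b side and at 93.2, 57.7, 125 and 72.3 CPM on the Krt13 side. Sprr1a, a small proline-rich protein of the cornified envelope, stood at 2728, 1745, 2667 and 1817 CPM on the Krt6b side and at 424, 346, 284 and 1183 CPM on the other. Krt16, Sprr1a, Krt6a, S100a10, S100a14 and the calcium-dependent membrane-binding protein gene Anxa1 were higher on the Krt6b side in all 4 libraries. Krt6a can share reads with Krt6b, the gene that set this side. On the Krt13 side of day 1 replicate 2, Krt16 rested on 1 UMI, S100a14 on 4 and Sprr1a on 6. For Anxa1 in day 1 replicate 1 the gap was small, 2981 against 2880 CPM, and for Krt6a in day 6 it was 11333 against 10700 CPM.

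The side differed between libraries for Sprr2d, Krt10 and Ltf. Sprr2d had 50.5, 2688, 8237 and 1647 CPM on the Krt6b side against 525, 0, 529 and 525 CPM, so day 1 replicate 1 went the other way, on 1 UMI. Krt10, a keratin of skin-type suprabasal cells, had 0, 25.1, 21.5 and 53.1 CPM on the Krt6b side against 8.47, 0, 314 and 280 CPM. Krt1, the partner of Krt10, had 73.1 and 77.2 CPM on the Krt13 side of day 3 and day 6 and 0 UMIs on the Krt6b side of all 4 libraries. Ltf was higher on the Krt13 side in day 1 replicate 1 (695 against 50.5 CPM) and day 6 (8354 against 4038 CPM), and on the Krt6b side in day 1 replicate 2 (1701 against 57.7 CPM) and day 3 (1506 against 1190 CPM). In each day 1 library the lower Ltf value rested on 1 UMI.

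The members were next compared with the lowest-R cells of the same library. UMIs were summed over the cells of each layer and library and fitted with edgeR's quasi-likelihood test with library as a block, leaving out the 14 genes of the rule. Both layers were picked on these same cells, so genes that vary together with the 9 genes of R had to differ, and the test describes what goes with R and is no independent evidence of a layer. At an adjusted p under 0.05 (Benjamini-Hochberg, 5871 genes), 485 genes were higher in the members, 8.26% of those tested, and 298 lower, 5.08%. Of these, 429 and 266 had the same sign in all 4 libraries, and 263 and 180 changed at least 2-fold. The median log2 change over all genes was 0.02.

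**Figure D4:**
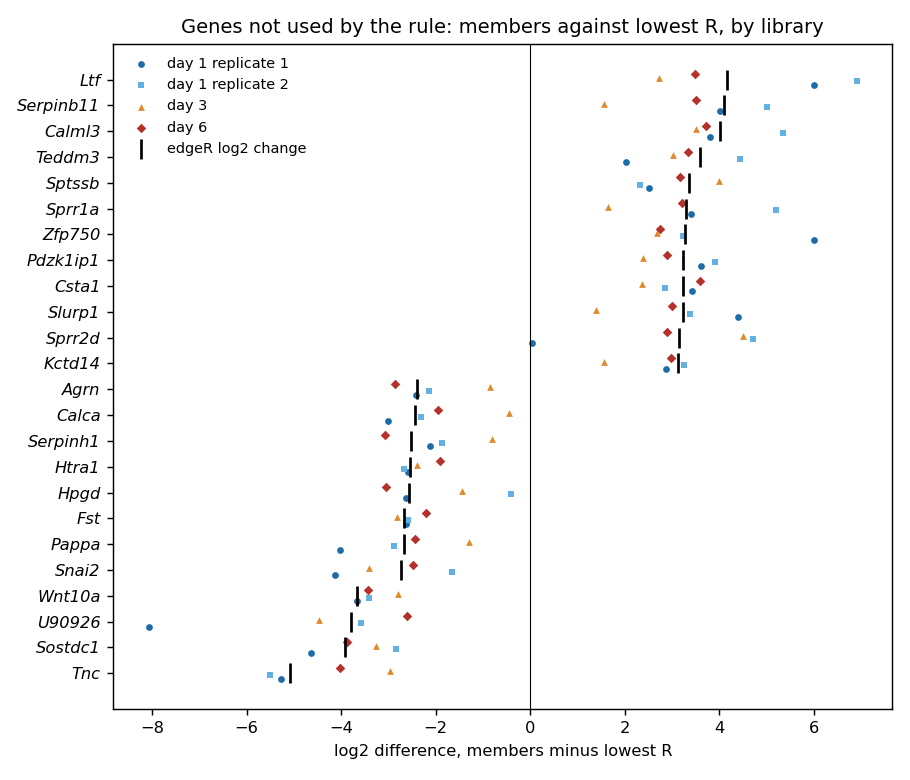
Log2 difference between members and lowest-R cells (horizontal axis; TMM-scaled CPM with a prior count of 2) in each library for the 12 genes with the largest positive and the 12 with the largest negative change; coloured points are libraries and the black bar is the edgeR estimate. All 4 points lie on one side of 0 for each gene, with Sprr2d of day 1 replicate 1 closest to 0 at 0.04.

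The 12 genes with the largest increases, among those with at least 50 CPM, were of several kinds. Calml3, a calmodulin-like protein of stratified epithelium, had 929, 680, 1439 and 1242 CPM in the members against 68.7, 16.1, 128 and 108 CPM in the lowest-R cells, and no member value overlapped a lowest-R value. Its log2 change was 4.02 ± 0.24 (SE, edgeR adjusted p = 1.64e-07). The cysteine protease inhibitor gene Csta1 went from 43.7, 48.4, 56.2 and 41.4 CPM to 464, 313, 293 and 458 CPM, again without overlap (log2 3.22 ± 0.21). Columnar cells had 30.2, 41.6, 70.4 and 101 CPM of it, below the members in every library.

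The transcription factor gene Zfp750, needed for the late differentiation of epidermal cells, had 239, 120, 175 and 137 CPM in the members against 0, 11.5, 25 and 21.1 CPM (log2 3.27 ± 0.31). Slurp1, a secreted Ly6 protein, had 196, 30.6, 45.4 and 187 CPM against 6.25, 0, 15.6 and 24.5 CPM (log2 3.22 ± 0.36), and the level of day 1 replicate 2 rested on 12 UMIs. Serpinb11 (log2 4.09), Teddm3 (3.58), Sptssb (3.36), Sprr1a (3.30), Pdzk1ip1 (3.23), Sprr2d (3.15) and Kctd14 (3.13) completed the 12 with Ltf (4.15). Sprr2d of day 1 replicate 1 did not separate the layers, with 457 CPM in the members and 487 CPM in the lowest-R cells.

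The 12 genes with the largest decreases were of several kinds as well. Tnc, the matrix protein tenascin C, fell from 156, 445, 109 and 113 CPM in the lowest-R cells to 0, 5.1, 10.5 and 2.97 CPM in the members (log2 −5.08 ± 0.36, adjusted p = 3.52e-07). Wnt10a, a WNT ligand, fell from 150, 164, 122 and 164 CPM to 7.26, 10.2, 14 and 10.1 CPM (log2 −3.67 ± 0.27). In both genes every member value lay below every lowest-R value. The fold of Tnc depends on the prior count, since 1 library had 0 UMIs.

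Snai2, a transcription factor of undifferentiated basal cells, fell from 68.7, 46.1, 34.4 and 141 CPM to 0, 10.2, 0 and 19 CPM (log2 −2.74 ± 0.36). Fst, which encodes the activin inhibitor follistatin, fell from 119, 917, 250 and 67.9 CPM to 14.5, 127, 31.4 and 10.1 CPM (log2 −2.66 ± 0.20). Sostdc1 (log2 −3.92), U90926 (−3.80), Pappa (−2.68), Hpgd (−2.56), Htra1 (−2.54), Serpinh1 (−2.52), Calca (−2.44) and Agrn (−2.40) made up the rest. Sostdc1 encodes a BMP and WNT antagonist, Pappa a protease of IGF-binding proteins, and Agrn the basement membrane protein agrin.

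**Figure D5:**
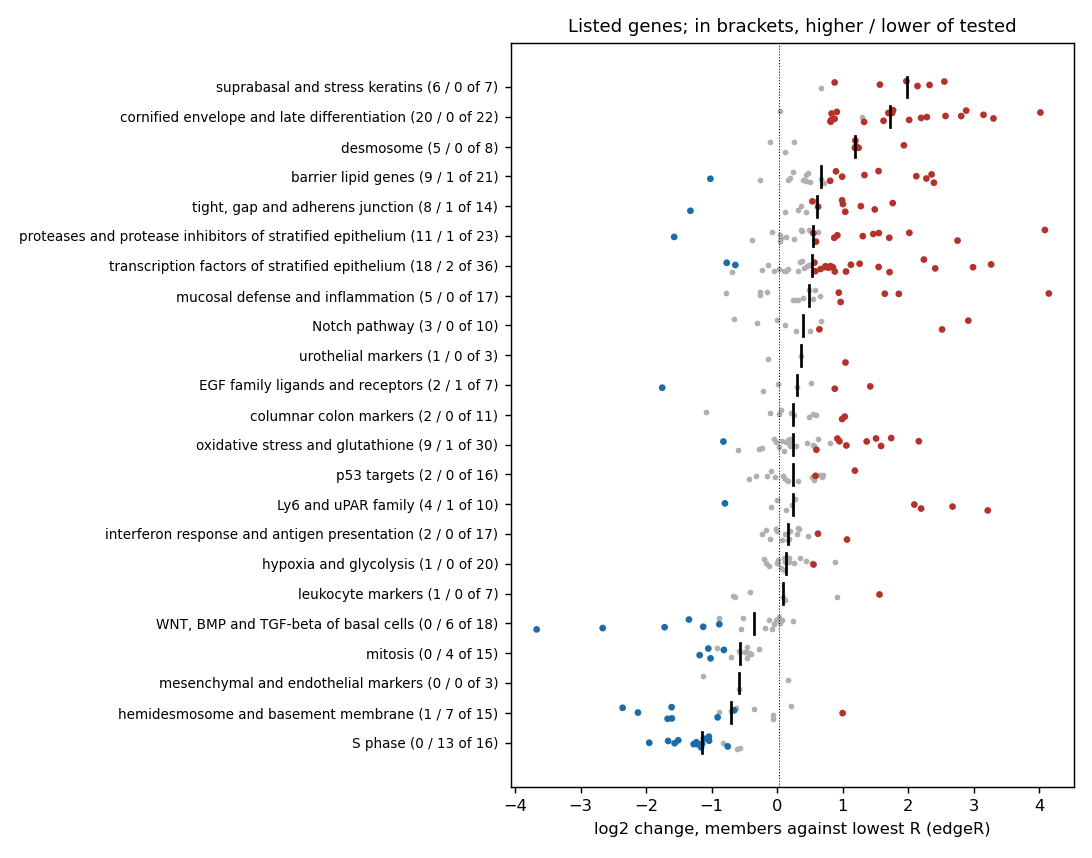
Log2 change between members and lowest-R cells (horizontal axis, edgeR) of each listed gene, with 1 row per gene list; red and blue points are genes called higher and lower, grey points genes not called, black bars list medians and the dotted line the median of all genes. Keratin, cornified envelope and desmosome lists have their medians at 1.98, 1.73 and 1.19, and the S phase list has its median at −1.15.

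Gene lists of known function are summarised in the plot of listed genes, each by its counts. Of 7 suprabasal and stress keratins tested, 6 rose and 0 fell (median log2 1.98): Krt84, Krt10, Krt23, Krt16, Krt6a and Krt19. Krt84 and Krt10 went the other way in day 1 replicate 1, where both had few UMIs. Krt19 had 363, 981, 587 and 853 CPM in the members but 1010, 1922, 1031 and 2192 CPM in columnar cells. Krt16 had 276, 4458, 307 and 159 CPM in the members against 212, 422, 228 and 30.6 CPM in the lowest-R cells, so that day 1 replicate 2 showed by far the widest gap. Krt7, a keratin of simple epithelia, was not called (log2 0.67 ± 0.22, adjusted p = 0.0533).

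Of 22 cornified envelope and late differentiation genes, 20 rose and 0 fell (median log2 1.73). They included the envelope scaffold proteins Ppl (log2 2.81), Evpl (2.02) and Scel (2.89), and the cross-linking enzyme gene Tgm1 (1.77 ± 0.25), which had 167, 573, 105 and 218 CPM in the members against 119, 205, 50 and 41.4 CPM. Sprr2a1, Sprr2a2 and Sprr2a3 rose by 0.82 to 0.91, yet their CPM in columnar cells was above that of the members in every library, and their near-identical sequences can share reads. Lor and Flg, which encode the main proteins of dry cornified skin, did not pass the filter on low counts: Lor had 1, 1, 3 and 0 UMIs in the members and Flg 0, 0, 0 and 6. Lor had 10.8, 8.06, 8.96 and 2.19 CPM in columnar cells, which is no lower than in the members except in day 3 (10.5 CPM). Krtdap rose (log2 1.63 ± 0.42, adjusted p = 0.0163) with 3 of 4 libraries, and in day 6 it had 306 CPM in the members against 427 CPM.

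Cell contacts changed in both directions. Of 8 desmosome genes 5 rose (Dsc2, Pkp1, Dsg3, Jup and Perp), with Dsc2, a desmosomal cadherin, at 450, 466, 147 and 349 CPM in the members against 87.5, 140, 93.7 and 82.2 CPM (log2 1.94 ± 0.22). Of 15 hemidesmosome and basement membrane genes 7 fell, the integrins Itga6, Itga3 and Itgb1, the linker Dst and the laminin chains Lama3, Lamb3 and Lamb1, and 1 rose, the cell-surface proteoglycan Sdc1 (log2 1.00). Itga3 went from 331, 500, 465 and 237 CPM in the lowest-R cells to 65.3, 127, 164 and 75.5 CPM in the members (log2 −1.61 ± 0.17). Lamb3 fell by 2.12 on the log2 scale.

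Of 14 tight, gap and adherens junction genes 8 rose and 1 fell. The connexins Gjb2 (log2 1.77) and Gja1 (1.04), occludin (Ocln, 1.49), the claudins Cldn4 (1.28), Cldn3 (0.99) and Cldn7 (0.63), and E-cadherin (Cdh1, 1.01) were among those that rose. P-cadherin (Cdh3), the cadherin of basal cells, fell by 1.32. Gja1, Cldn3 and Cldn7 were higher in 3 of 4 libraries. Cldn3, Cldn7 and Cdh1 had more CPM in columnar cells than in the members in all 4 libraries, and the part of columnar RNA in their rise was not tested.

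Of 10 Notch pathway genes 3 rose and 0 fell: the receptor Notch3 (152, 58.6, 115 and 109 CPM in the members against 0, 20.7, 12.5 and 16.3 CPM, log2 2.92 ± 0.34), and the targets Nrarp (2.52) and Hes1 (0.65). The receptor Notch1 was not called (log2 −0.31) and neither was the ligand Jag1 (0.01). Of 36 transcription factors of stratified epithelium 18 rose and 2 fell, Id3 and Rora. Besides Zfp750, the factors of late differentiation Grhl3 (log2 2.99), Grhl1 (2.24), Ovol1 (1.72) and Klf4 (1.26) were among those that rose. Grhl3 had 72.6, 140, 38.4 and 135 CPM in the members against 0, 25.3, 12.5 and 16.3 CPM in the lowest-R cells. The AP-1 genes Fos (0.88) and Junb (0.74) rose, and Pitx1 (0.17) and Sox2 (0.33) were not called.

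Proteases and their inhibitors made a further group, in which 11 of 23 rose and 1, Serpinb10, fell. Tmprss11b, a membrane-bound serine protease of squamous mucosa, had 305, 318, 66.4 and 346 CPM in the members against 50, 92.2, 18.7 and 34 CPM (log2 2.76 ± 0.27). Of 21 barrier lipid genes 9 rose, among them the fatty acid-binding protein gene Fabp5 (1371, 616, 286 and 455 CPM against 188, 106, 50 and 174 CPM, log2 2.40 ± 0.21), the acyl-CoA synthetase gene Acsl1 (2.36) and the lipoxygenase gene Alox12 (2.13), and the lipid droplet gene Plin2 fell (−1.02). Of 30 oxidative stress and glutathione genes 9 rose and 1, Gclm, fell. Gsto1, a glutathione transferase, had the highest level of these with 5028, 8786, 7019 and 17145 CPM in the members against 1450, 2778, 1702 and 3047 CPM (log2 2.16 ± 0.14, adjusted p = 1.66e-07).

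Of 17 mucosal defense genes 5 rose and 0 fell. Ltf encodes the iron-binding secreted protein lactoferrin, and it had 602, 1567, 1240 and 8243 CPM in the members against 6.25, 11.5, 190 and 866 CPM in the lowest-R cells (log2 4.15 ± 0.45). Ltf was found in 4 of 17, 21 of 63, 45 of 72 and 200 of 231 members. Neutrophils store lactoferrin too. Cells of the leukocyte gate, which is not specific to neutrophils, held 24.6 and 11.7 CPM in the day 1 libraries and 320 CPM in day 6, and the part of leukocyte RNA in the Ltf of the members was not tested. The calprotectin genes S100a8 (log2 1.64) and S100a9 (1.86), the alarmin gene Il33 (0.97) and Duoxa1 (0.94), the maturation factor of a hydrogen peroxide-producing oxidase, rose. The part of leukocyte RNA in S100a8 and S100a9 was not tested either. Of 10 Ly6 family genes Slurp1, Ly6d (2.68), Lypd3 (2.20) and Ly6g6e (2.10) rose and Ly6c1 fell (−0.80).

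The remaining lists are given beside the shares of all tested genes, 8.26% higher and 5.08% lower. Of 17 interferon response and antigen presentation genes 2 (11.8%) rose, Ifitm1 (log2 1.07) and Ifitm2 (0.62), and of 20 hypoxia and glycolysis genes 1 (5%), Aldoa (0.55). Of 16 p53 targets 2 (12.5%) rose, Perp, which also stands in the desmosome list, and the cell cycle inhibitor gene Cdkn1a (704, 729, 849 and 295 CPM in the members against 506, 622, 809 and 156 CPM, log2 0.59, with 1148, 930, 1073 and 472 CPM in columnar cells). Of 7 EGF family genes Erbb3 (1.42) and Hbegf (0.88) rose and Nrg1 (−1.75) fell. Of 18 WNT, BMP and TGF-beta genes 6 (33.3%) fell and 0 rose, with Tgfbi (−1.72), Igfbp7 (−1.34), Bmp7 (−1.13) and Wnt5a (−0.88) beside Wnt10a and Fst.

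DNA replication and mitosis were followed with a list each. Of 16 S phase genes 13 fell and 0 rose (median log2 −1.15), with the replicative helicase subunit Mcm6 at 21.8, 20.4, 31.4 and 30.3 CPM in the members against 100, 96.8, 53.1 and 174 CPM (log2 −1.95 ± 0.28). Of 15 mitosis genes 4 fell, Ccnb1 (−1.18), Smc4, Cdc20 and Cenpa, 0 rose and the other 11 were not called. Top2a, which untangles replicated DNA, had 160, 61.1, 126 and 125 CPM against 200, 85.2, 184 and 276 CPM and was not called (log2 −0.56 ± 0.19, adjusted p = 0.0592).

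Each cell was also thinned to 1000 UMIs, so that depth was equal, and the share of cells with a UMI of any listed mitosis gene was taken. It was 23.5% (4 of 17), 25.4% (16 of 63), 68.1% (49 of 72) and 42% (95 of 226) in the members and 58.8%, 38.1%, 76.4% and 50.6% in the lowest-R cells. The mean difference was −16.2 points (SD 12.9, n = 4 libraries), lower in 4 of 4, with an exact two-sided permutation p of 0.13, the smallest this design allows. Without day 1 replicate 1 the mean difference was −9.88 points, and with no thinning of cells −7.89 points. Without thinning the shares were 70.6%, 73%, 93.1% and 88.7% in the members and 88.2%, 76.2%, 98.6% and 93.9% in the lowest-R cells. The middle cells had 64.7%, 65.6%, 75% and 61.8% after thinning, above the lowest-R cells in 3 libraries. Columnar cells had 35.6%, 34.8%, 73.6% and 58.6% and leukocytes of day 6 57.9%, so the members lay below the columnar share in all 4. The share with a UMI of an S phase gene was 58.8%, 55.6%, 56.9% and 44.2% in the members and 58.8%, 55.6%, 76.4% and 61.9% in the lowest-R cells, equal in the early libraries. Columnar cells had 44.4%, 43.2%, 67.6% and 52.4%, below the members in both early libraries and above them in both late ones. The mean S phase difference between members and lowest-R cells was −9.28 points (exact two-sided permutation p of 0.5). Free RNA can add such UMIs to any cell, and its part was not tested.

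Other cell types in the gate were checked with markers. Summed over 20 columnar genes, the members held 3170, 1625, 2706 and 1938 CPM and the lowest-R cells 2962, 1067, 2982 and 1708 CPM, against 7826, 4477, 5343 and 6036 CPM in columnar cells. Of the 11 tested, Krt20 and Cldn3 rose in the members. Summed over 20 leukocyte genes, the members held 566, 983, 471 and 491 CPM and the lowest-R cells 400, 514, 356 and 568 CPM. The sum was thus higher in the members except in day 6. Leukocytes held 16868 to 26224 CPM, and 1 of 7 tested, Srgn (log2 1.55), rose in the members. Summed over 16 mesenchymal and endothelial genes, the members held 225, 446, 866 and 272 CPM and the lowest-R cells 487, 438, 1077 and 391 CPM, lower in the members in 3 of 4 libraries, and the 3 tested were not called. Fibroblasts also make tenascin C, and Sparc, a matrix gene of that list, had 21.8, 135, 220 and 37.4 CPM in the members against 138, 219, 284 and 61.8 CPM. The part of these cell types in the differences between layers was not tested.

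Krt4, Krt13 and Psca also mark bladder lining, so uroplakin genes were read in the members. Upk1b had 0, 0, 0 and 3 UMIs, Upk3a 0, 0, 1 and 0, Upk1a 0, 1, 1 and 8, and Upk2 0, 2, 2 and 34 UMIs, the last being 20.2 CPM. Of the 3 urothelial genes tested only Krt20 rose, and it was highest in columnar cells (281, 402, 483 and 1162 CPM against 109, 140, 328 and 465 CPM in the members). In the lowest-R cells of day 6, Upk1b had 42 UMIs (28.5 CPM). The members thus carried envelope and desmosome genes that the rule had not used, with Lor and Flg at or near 0 and uroplakins low.

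The size of the layer comparison moved with some choices. Without day 6, which held most members, 271 genes were higher and 164 lower, and without day 1 replicate 2, where the score was weakest, 348 and 223. With cells of few leukocyte and columnar UMIs alone, a choice made after seeing the data, 329 and 227 of 4284 genes were called.

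The late libraries were compared with the early ones within the members (2 libraries each). Of 5790 genes, 7 passed an adjusted p of 0.05, which is 0.121%. An unadjusted p under 0.05 was found in 219, a share below the 0.05 that no effect at all would give. All 7 had an edgeR adjusted p of 0.0336. Under 6 other choices of cells or of R edgeR called 0 genes (139 to 200 at an unadjusted p under 0.05), and leaving out 1 library gave 3 genes (without day 1 replicate 2) to 87 (without day 3), 21 without day 1 replicate 1 and 54 without day 6. The 7 were Krt10 and Krt1, higher late, and Sprr1b, Hbb-bs, Hba-a1, Ddx3y and Rpl39, lower late.

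Krt10 had 7.26 and 22.9 CPM in the early members and 279 and 274 CPM in the late ones, without overlap (log2 4.09 ± 0.71). In columnar cells it had 6.22, 6.97, 48.7 and 14.4 CPM. Krt1 had 0 UMIs in both early libraries and 59.4 and 77.3 CPM late. Against 3 counts over both early libraries (5.66 CPM), it was at least 13.2-fold higher late. The late level came from few cells: 9 of 72 and 25 of 231 members had a Krt1 UMI, and the highest cell held 35.3% and 44.6% of its UMIs. The lowest-R cells had 0, 0, 31.2 and 26.5 CPM of Krt1.

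Sprr1b had 268, 38.2, 0 and 1.19 CPM, but all 37 of its UMIs in day 1 replicate 1 came from 1 cell, and the 15 of day 1 replicate 2 from 6 cells. Hemoglobin genes rested on single cells as well. Hba-a1 had 174, 4109, 17.5 and 15.4 CPM in the members, and 1 cell held 57.9% of its UMIs in day 1 replicate 2. In the lowest-R cells of day 3 it had 1143 CPM, of which 1 cell held 98.1%. Rpl39, a ribosomal protein gene, had 1531, 594, 62.9 and 52.3 CPM in the members and 809, 462, 50 and 44.8 CPM in columnar cells, lower late in both. The median mitochondrial share of UMIs was also lower late in both. It was 2.55%, 2.09%, 0.79% and 0.82% in the members and 2.42%, 2.81%, 0.79% and 0.84% in columnar cells. The part of such a difference between libraries in the calls over time was not tested.

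Ddx3y is on the Y chromosome, and it had 79.8 and 48.4 CPM early and 0 UMIs late, at least 37.1-fold lower. Xist, which is made from an inactive X chromosome, had 0 UMIs early and 31.4 and 112 CPM late (edgeR adjusted p = 0.0539), at least 17.8-fold higher. These genes differ between male and female mice, and sex and time point cannot be told apart here. The study does not give the mouse background of each library, and its part was not tested. The library structure did differ within both periods, and with structure as a block 4 genes were higher and 6 lower.

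The squamous regulators Sox2 and Trp63 and the interferon-induced genes Ifi27 and Ifitm3 were followed in the members by a rule set for this comparison. Sox2 had 123, 73.9, 122 and 224 CPM (log2 late against early 1.06 ± 0.59, adjusted p = 1.00) and Ifitm3 2924, 1539, 2748 and 3028 CPM (0.57 ± 0.70). Ifi27 had 65.3, 12.7, 34.9 and 63.6 CPM (0.84 ± 0.76), and Trp63, a gene of the rule, 268, 91.7, 105 and 235 CPM. In all 4 genes the early and late values overlapped.

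The share of squamous cells with a UMI of each suprabasal gene was compared between periods after thinning, over all 1150 squamous cells less those below 1000 UMIs. Krt13 was found in 66.7%, 17.9%, 72.2% and 77.4% of them, a late minus early difference of 32.5 points, and Krt4 in 15.7%, 3.16%, 30.6% and 40.6%, a difference of 26.2 points. The same share in columnar cells was 32.7%, 9.21%, 57% and 66.3% for Krt13 and 11.6%, 3.87%, 16.7% and 29.9% for Krt4. The columnar share thus rose too, for Krt13 by more points than in squamous cells and for Krt4 by fewer. Krt6b (52.9%, 42.6%, 37.5% and 38.3%) differed by −9.91 points, Psca (7.84%, 5.79%, 9.26% and 12.26%) by 3.94 points and Spink5 by −0.34 points. In columnar cells the share was 12.7%, 9.47%, 18.4% and 25.1% for Krt6b and 2.72%, 1.42%, 7.04% and 12.25% for Psca. For Spink5 it was 1.36%, 0.258%, 1.66% and 2.93%, so all of these columnar shares were higher late. Without day 1 replicate 2 the Krt13 difference was 8.14 points, and without thinning the Krt6b difference was −0.66 points and the Psca difference 9.83 points. The exact two-sided permutation p was 0.33 for Krt13, Krt4, Krt6b and Psca, the smallest that 2 against 2 libraries allow, and 1.00 for Spink5. The median depth of columnar cells was 5208, 5358, 4147 and 2846 UMIs.

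Finally, the layer difference itself was compared between periods, as an interaction term. Of 7207 genes, 4 passed an adjusted p of 0.05 (0.0555%), Ltf, Chit1, Hbb-bt and Igha. An unadjusted p under 0.05 was found in 313, again a share below 0.05. Without 1 library the count ran from 3 (without day 1 replicate 2) to 24 (without day 1 replicate 1), with 18 without day 3 and 14 without day 6. The layer difference of Ltf was 5.99 and 6.91 on the log2 scale early and 2.73 and 3.48 late (interaction −3.99 ± 0.48, edgeR adjusted p = 0.000468). Its level in the members was highest late in day 6, and the lowest-R level rose from 6.25 and 11.5 CPM early to 190 and 866 CPM late. The early lowest-R sums held 160042 and 434047 UMIs in all, so their Ltf levels rested on few UMIs. The size of the early differences therefore depends on the prior count. Columnar cells went from 13.9 and 21 CPM to 194 and 524 CPM. The lowest-R and columnar levels of Ltf were thus both higher late.

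Chit1, which encodes a chitin-degrading enzyme, had 334, 30.6, 220 and 150 CPM in the members and 37.5, 2.3, 150 and 222 CPM in the lowest-R cells, so that the layers were apart early and not late (interaction −3.34 ± 0.60). Its early lowest-R levels rested on few UMIs as well. Igha, the heavy chain of IgA made by plasma cells, had 72.6, 138, 17.5 and 5021 CPM in the members and 112, 154, 15.6 and 733 CPM in the lowest-R cells. In day 6, 1 member held 22.8% of its UMIs and columnar cells had 6121 CPM. Hbb-bt had 7.26, 606, 0 and 7.13 CPM in the members, with 90.8% of the UMIs of day 1 replicate 2 in 1 cell.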

How the data were processed

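Dissociated treated tumors and a stromal preparation were profiled by inDrop. Per the study's methods the authors aligned reads to GRCm38, collapsed UMIs with dropEst and deposited raw UMI counts per gene and barcode. Deposited counts were used unchanged. Barcodes with at least 500 genes and at most 15% mitochondrial UMIs were kept, giving 7396 treated cells. Sums per library and R group were tested with edgeR 4.0.16 in R 4.3.3 (TMM, filterByExpr, quasi-likelihood, Benjamini-Hochberg adjusted p under 0.05), with library as a block between layers, since both layers come from the same library. The 14 rule genes were left out of tests but not of library sizes. Alternatives were DESeq2 1.42.0, no filter on low counts, leaving out each library, R after thinning to 1000 UMIs, the outer 25% on each side of R, a gate of 20 UMIs, removal of high Scrublet scores, and others named in the closing part. Scrublet (scanpy 1.11.5) called 12 of 7396 cells, too few to have worked, so cells scoring above the limit of the highest 6% of each library (397 cells with ties kept, 12 of them members) were removed as an alternative. Shares were compared over libraries by exact permutation (scipy 1.17.1), with p of at least 0.13 for 4 pairs and 0.33 for 2 against 2. Intervals of 95% are exact and, like limits for 0 counts (3 counts), cover counting error only. The fits were tested on simulated counts with a log2 change of 2 up or down, a dispersion of 0.05 and no difference between libraries except in size. These settings are simpler than the data. Of the changed genes, edgeR called 166 of 166 between layers, 148 of 172 over time and 74 of 195 in the interaction. The interaction fit can thus miss many changes of that size.

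Genes named in the layer comparison were the 12 with the largest change in each direction among called genes with the same sign in all 4 libraries and at least 50 CPM on average in the group where they were higher, and, from each of 23 gene lists, the 4 with the highest mean CPM and the called members. In the other comparisons they were taken from the 10 with the smallest p, plus Sox2, Trp63, Ifi27 and Ifitm3, which the study names. Lor, Flg and the uroplakins were named after their values were seen. The members, lists and rules were chosen with earlier results of these data known. The study calls the libraries of a period biological replicates, while the labels do not name the mice, and the late replicates differ in day. Promoter sequences were matched by symbol. Some listed genes are not reported here.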

Additional observations from a re-analysis of the deposited data

Results flagged for a closer look

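The difference between members and lowest-R cells changed between the early and late libraries in 4 genes by the interaction test (edgeR, adjusted p under 0.05). For Ltf the change was −3.99 on the log2 scale (adjusted p = 0.000468), from differences of 5.99 and 6.91 early to 2.73 and 3.48 late. For Chit1 it was −3.34 (adjusted p = 0.0366), from 3.15 and 2.70 to 0.60 and −0.33. In both genes the early lowest-R levels rested on few UMIs. For Hbb-bt it was −6.55 (adjusted p = 0.0366), from 1.54 and 3.35 to −7.23 and 0.77, and 1 cell held 98.2% of its UMIs in the lowest-R cells of day 3. For Igha it was 2.82 (adjusted p = 0.0366), from −0.48 and 0.07 to 0.18 and 3.00, so that day 6 alone stood apart. Without day 1 replicate 2, none of the 4 was called.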

How the results depend on the processing

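All 159 named layer genes kept their direction in every alternative that tested them, and 110 kept their call in every one but the fit without library block. The count of layer genes was 783. DESeq2 called 438, no filter on low counts 1272, and leaving out 1 library gave 435 (without day 6) to 848 (without day 3). With no replicate block, which ignores that both layers share a library, it was 18. The 7 treatment genes became 44 with no filter on low counts and 3 to 87 without 1 library, where the arm left with 1 library was assumed to vary like the other. They became 0 with R after thinning, the outer 25% of cells on each side of R, a gate of 20 UMIs, removal of high Scrublet scores, R above 0 in every library, and cells with few leukocyte and columnar UMIs (added after seeing the data). The 4 interaction genes became 1 with DESeq2, with a gate of 20 UMIs and with few leukocyte and columnar UMIs, 12 without high Scrublet scores, 18 with no filter, and 3 to 24 without 1 library. The late minus early difference in the Spink5 share (−0.34 points) turned to 0.91 points with a gate of 20 UMIs and ran from −6.69 to 6.01 points without 1 library, positive without day 1 replicate 1 (1.72) or day 3. The share differences of mitosis genes, Krt13, Krt4, Krt6b and Psca kept their sign throughout but not their size. Mitosis (−16.2 points) ran from −18.9 to −9.88 without 1 library and was −7.89 without thinning. Krt13 (32.5) ran from 8.14 (without day 1 replicate 2) to 56.9 (without day 1 replicate 1). Krt6b (−9.91) ran from −15.1 (without day 1 replicate 2) to −4.75 (without day 1 replicate 1) and was −0.66 (exact permutation p of 1.00) without thinning. Psca (3.94) ran from 2.44 to 5.44 and was 9.83 without thinning. The causes were not tested. The 2 libraries per period and the 17 members of day 1 replicate 1 limit the comparisons over time.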
